A study of Mus musculus with 4 samples.

Results

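The genes described here are 34 markers of the enteric nervous system, 26 of neurons and 8 of glia, chosen by name from 37066 gene names on a mouse expression array. Their transcripts were measured in total RNA from entire colons of C57BL/6 mice on day 5 of drinking dextran sulphate sodium (DSS), a polymer that damages the gut lining and so causes colitis. The mutant group was Junb fl/fl Cd4-Cre, in which Cre driven from Cd4 deletes the floxed Junb alleles in the T cell lineage, and the control group was Junb fl/fl without Cre, with 2 arrays each. Both groups carried the floxed alleles and both received DSS, and no colon without DSS is among these arrays. Cd4-Cre is not directed at neurons or glia. Junb encodes an AP-1 subunit that regulates transcription. The question was how the transcriptome of the mutant colon, described by the submitters as having worse colitis, differed from that of the control colon. Of the 34 markers, 29 were well above background on at least 2 of 4 arrays and were tested, 22 of 26 for neurons and 7 of 8 for glia.

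The enteric nervous system is a network of ganglia within the gut wall, between the muscle layers and in the submucosa, that controls motility, secretion and blood flow. Its neurons and glia descend from neural crest cells, which need the receptor Ret and its ligand Gdnf to colonise the gut. Excitatory motor neurons release acetylcholine and tachykinins, inhibitory ones release nitric oxide and the peptide Vip, and glia surround the neurons and send processes into the muscle and mucosa.

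Values are given as log2 signal, the log2 of a spot's background-corrected intensity minus the log2 of the 75th percentile of its array, so that 0 is the 75th percentile. Differences are mutant minus control, with the standard error (SE) and the p-value of limma fitted over 19325 genes (n = 2 and 2 arrays), and probes of different genes are not compared in level. That percentile was 310.9 and 268.5 intensity units in the mutants and 330.0 and 328.6 in the controls, the probes well above background numbered 27935 to 29090 of 56605, and no spot was saturated. Junb itself stood at 4.44 and 4.47 in the mutants and 4.23 and 4.39 in the controls (0.15 ± 0.11), which is no check of a deletion confined to T cells. All 9 colon epithelial markers were tested, Cdx2, Muc2 and Slc26a3 among them, so the tissue carried its defining markers. The 2 arrays numbered 1 showed Xist and those numbered 2 the Y-linked Eif2s3y and Ddx3y, and by these 3 genes replicate 1 of each group is called female and replicate 2 male. Another Y-linked gene, Kdm5d, did not separate them, with -2.44 and -2.25 in the mutants and -2.52 and -2.33 in the controls. Pooled differences are accompanied by those of each pair. Xist had -0.77 and -6.43 in mutant replicates 1 and 2, and -0.55 and -6.13 in control replicates 1 and 2.

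Each gene was read by probes of 60 bases. The first 30 bases of the probes of the 3 members with the smallest p, and of both Syt1 probes that went opposite ways, are shown 5′ to 3′ as the files give them, since the results below rest on these oligonucleotides.
Stmn2: atggatcatgcgatatcagtatgggaagtg
Ret: ccataccgtgttgacttgtttttgtaatca
S100b: gaagctggacttgaggctttctaacttgca
Syt1, brighter probe: aggggctttcctacttaagggaccaagtcc
Syt1, dimmer probe: aacaacagcgaacatctgacccataaaatg
In the files' mouse build, mm9, the Stmn2 probe lies at chr3:8560382-8560441 on the plus strand, the Ret probe at chr6:118101791-118101850 on the minus strand and the S100b probe at chr10:75723783-75723842 on the plus strand. The brighter Syt1 probe is at chr10:107935310-107935369 and the dimmer one at chr10:108336500-108336559, both on the minus strand. Exon and UTR positions on mm9 were not used here.

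Most neuronal transcripts were somewhat lower in the mutant colon. Of 22 tested neuron genes, 19 were lower and 3 higher, with a median log2 difference of -0.29. The median of all 19325 genes was 0.02, and 46.6% of them were lower and 53.4% higher. The dimmest spot well above background stood lower in the mutants. It had -4.12 and -4.25 there, against -3.99 and -3.97 in the controls. With normexp background correction the neuron median was -0.17 and the glial median -0.09. Probes of the untested members, well above background on no array, also differed between the groups. Those of Gfra1 gave 0.30 and -1.03, of Chrna3 0.07 and -0.22, and of Nos1 -0.70 and -0.21. Npy gave -0.08 and Cdh19 -0.25. The median of all genes is not matched to the members in brightness. Whether the offset of the dimmest spots played a part in the differences of dim members was not tested. Stmn2, which encodes the microtubule regulator stathmin 2 of growing axons, and Ret, the receptor of glial cell line-derived factors, were the 2 neuron genes at an unadjusted p under 0.05, and both were lower, where 3.98% of all genes were lower and 5.31% higher at that threshold. In 12 of the 22 both mutant arrays lay below both control arrays, against 17.6% of all genes, and in none did both lie above, against 25.7%. No member passed an adjusted p of 0.05 in limma, nor did any of the 19325 genes (0% called). At an unadjusted p under 0.05 there were 3 members, all lower, and 1796 genes, which is 9.29% of those tested, and the smallest adjusted p among the members was 0.418. No member differed 2-fold, where 1.18% of genes were at least 2-fold lower and 1.22% at least 2-fold higher. In RNA of whole tissue, fewer neurons or glia and less RNA per cell cannot be told apart.

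**Figure D1:**
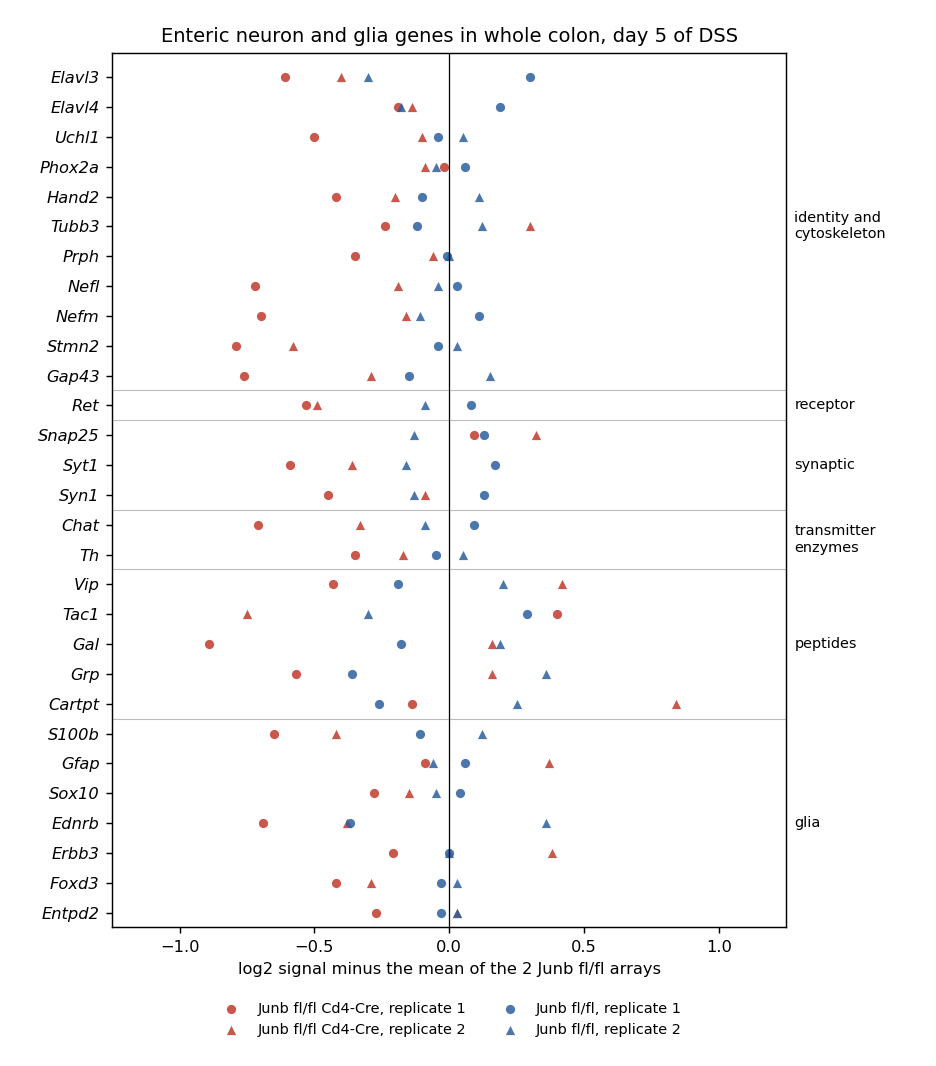
Each row is 1 tested gene and each point 1 array, plotted as log2 signal minus the mean of the 2 control arrays; red is Junb fl/fl Cd4-Cre, blue Junb fl/fl, circles replicate 1 (female) and triangles replicate 2 (male). Red points lie left of blue ones for Stmn2, Ret, Gap43 and S100b, while the peptide genes part by replicate number.

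Genes of neuronal identity and of the axon cytoskeleton made up the largest group. Of its 11 tested genes 10 were lower (median -0.32), and in 8 both mutant arrays lay below both controls, against 17.6% of all genes. The median was -0.51 without mutant replicate 2 and -0.16 without mutant replicate 1. Stmn2 had log2 signals of 1.24 and 1.45 in the mutants, against 1.99 and 2.06 in the controls. Every mutant value lay more than 0.5 below every control value. The difference was -0.68 ± 0.13, a 1.61-fold higher mean in the controls (unadjusted p = 0.0027, adjusted p = 0.418, limma), with -0.75 in the female and -0.61 in the male pair. By p it ranked 121 of 19325 genes, and it kept an unadjusted p under 0.05 without each array in turn, with differences of -0.79 to -0.58. A second Stmn2 probe stayed near background throughout.

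Gap43, a growth cone protein that marks axon outgrowth, had -0.61 and -0.14 in the mutants against 0.00 and 0.30 in the controls. The groups did not overlap, but mutant replicate 2 lay within 0.15 of the lower control (difference -0.52 ± 0.21, unadjusted p = 0.0581). Nefl, the light neurofilament chain, had -1.35 and -0.82 in the mutants against -0.60 and -0.67 in the controls (-0.45 ± 0.22). The medium chain Nefm showed -2.62 and -2.08 in the mutants against -1.81 and -2.03 in the controls (-0.43 ± 0.26). In both neurofilament genes mutant replicate 1 was low and mutant replicate 2 lay just below the controls. Second probes did not all show this: that of Nefl gave -0.57, with -2.36 and -2.05 in the mutants and -1.62 and -1.64 in the controls. That of Nefm, well above background on 2 of 4 arrays, had -3.29 and -4.72 in the mutants and -4.18 and -3.68 in the controls (-0.08), and the mean over both Nefm probes was -0.25. The intermediate filament gene Prph, encoding peripherin, differed by -0.20 ± 0.15, and by -0.08 with its second probe.

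The RNA-binding Hu proteins are widely used to count enteric neurons. Of their genes, Elavl3 had -3.03 and -2.82 in the mutants and -2.12 and -2.72 in the controls (-0.51 ± 0.29), and a second probe gave -0.39. Elavl4 had -1.09 and -1.04 in the mutants against -0.71 and -1.08 in the controls (-0.17 ± 0.19). For both, control replicate 1 was the high array and the other 3 lay close together. Uchl1, the neuronal ubiquitin hydrolase PGP9.5, which is also found in enteroendocrine cells, had 3.09 and 3.49 in the mutants against 3.55 and 3.64 in the controls (-0.31 ± 0.16). The transcription factor genes parted in size: Hand2, needed for enteric neurogenesis, differed by -0.32 ± 0.20, with the same difference in both pairs (-0.32 and -0.31). Phox2a, which sets autonomic neuron identity, had -1.13 and -1.20 in the mutants and -1.05 and -1.16 in the controls (-0.06 ± 0.15). Tubb3, the neuronal beta-tubulin, had -0.41 and 0.13 in the mutants and -0.29 and -0.05 in the controls, and its mutant arrays lay on either side of the controls (0.03 ± 0.22).

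Ret was the 1 receptor gene that could be tested. It had log2 signals of -1.52 and -1.48 in the mutants, against -0.91 and -1.08 in the controls. The mutant arrays lay within 0.05 of each other and below both controls. The difference was -0.51 ± 0.16 (unadjusted p = 0.0241, adjusted p = 0.468, limma), or -0.62 in the female and -0.41 in the male pair. Without 1 array it was -0.60 to -0.43 and stayed under the unadjusted threshold only without control replicate 2 (unadjusted p = 0.0368, limma). Without control replicate 1, mutant replicate 1 or mutant replicate 2 the unadjusted p of limma was 0.0993, 0.100 and 0.0873, and with normexp background correction the difference was -0.30 (unadjusted p = 0.0535). The coreceptor gene Gfra1 and the nicotinic receptor subunit gene Chrna3 each had 2 probes, none of which reached the background threshold on any array.

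Among synaptic genes Syt1, the calcium sensor of vesicle release, had -1.26 and -1.03 in the mutants against -0.50 and -0.83 in the controls. Its groups did not overlap (-0.48 ± 0.19, unadjusted p = 0.0523). The dimmer probe shown above, well above background on 2 of 4 arrays, had -4.05 and -3.07 in the mutants and -2.30 and -5.93 in the controls, and went the other way (0.55). Averaging the probes gave Syt1 a difference of 0.04. Syn1, encoding the vesicle protein synapsin I, had -2.25 and -1.89 in the mutants and -1.67 and -1.93 in the controls (-0.27 ± 0.23). Snap25, a membrane fusion protein of neurons and of enteroendocrine cells, had 3.16 and 3.39 in the mutants and 3.20 and 2.94 in the controls. The groups overlapped (0.20 ± 0.15). This probe opens with a run of CA repeats. The other Snap25 probes did not reach the background threshold on any array, so the bright signal rests on 1 probe.

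The transmitter enzymes were dim. Chat, which makes acetylcholine, had -3.70 and -3.32 in the mutants against -2.90 and -3.08 in the controls (-0.52 ± 0.29). Th, the rate-limiting enzyme of catecholamine synthesis, had -2.80 and -2.62 in the mutants and -2.50 and -2.40 in the controls (-0.27 ± 0.22). Both genes were lower in both mutant arrays, and neither passed the unadjusted threshold. Of the 6 Chat probes 1 passed the filter on dim signals. Nos1, the nitric oxide synthase of inhibitory motor neurons, did not reach that threshold with either of its 2 probes.

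Peptide genes did not divide by genotype. All 5 that were tested overlapped between mutants and controls, with differences from -0.37 to 0.36. They divided by replicate number instead: in 5 of 5 both arrays of replicate 2 lay on one side of both arrays of replicate 1, 4 higher and 1 lower in replicate 2, where 21.6% of all genes were higher and 17.5% lower. Of the other 17 neuron genes 1 was higher and 1 lower by that measure. Vip, the peptide of inhibitory motor and secretomotor neurons, had 0.07 and 0.92 in mutant replicates 1 and 2, and 0.31 and 0.70 in control replicates 1 and 2. Gal, encoding galanin, had 0.44 and 1.49 in the mutants and 1.15 and 1.52 in the controls. In Vip and Gal replicate 2 was the higher array of each genotype, and mutant replicate 1 the lowest of the 4.

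Grp, the gastrin-releasing peptide, had 0.04 and 0.77 in the mutants and 0.25 and 0.97 in the controls, so that replicate 2 exceeded replicate 1 by 0.74 in the mutants and 0.72 in the controls. Cartpt, encoding the CART peptide, had -0.71 and 0.27 in the mutants and -0.83 and -0.32 in the controls. Tac1, which encodes substance P and is made by enteric neurons and by enterochromaffin cells, ran the other way, at 3.71 and 2.56 in the mutants and 3.60 and 3.01 in the controls. Its second bright probe had the same order, with 1.48 and 0.07 in the mutants and 1.43 and 0.62 in the controls. Replicate number stood with sex here, and it stood also with Hoxb13, a gene of the distal colon, which had 4.43 and 1.56 in the mutants and 4.82 and 3.52 in the controls. Sex, the stretch of colon taken and other properties of the mice cannot be told apart over 4 arrays. Npy did not reach the background threshold on any array.

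**Figure D2:**
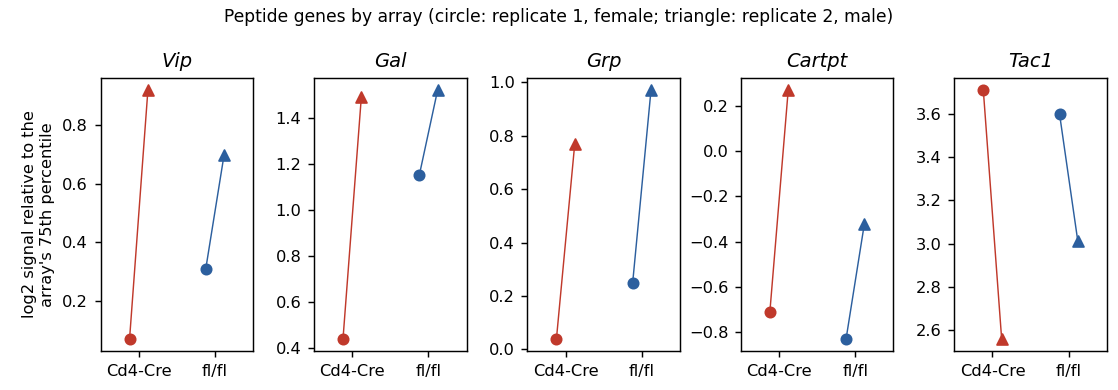
Log2 signal of the 5 tested peptide genes relative to the array's 75th percentile (each panel has its own axis), with Junb fl/fl Cd4-Cre in red at left and Junb fl/fl in blue at right; circles are replicate 1 and triangles replicate 2, joined within a genotype. Triangles are higher than circles for Vip, Gal, Grp and Cartpt and lower for Tac1, in both genotypes.

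Of 7 tested glial genes, 5 were lower and 2 higher (median -0.21), and in 4 both mutant arrays lay below both controls, against 17.6% of all genes. S100b, a calcium-binding protein used as a marker of enteric glia, had log2 signals of -1.60 and -1.37 in the mutants, against -1.06 and -0.83 in the controls. Which cells of the colon made its transcript was not tested. The groups stood 0.3 or more apart, and the difference was -0.54 in the female and -0.54 in the male pair. The pooled value was -0.54 ± 0.18 (unadjusted p = 0.0301, adjusted p = 0.489, limma), the 1 glial gene under the unadjusted threshold. Without control replicate 1 it held (-0.65, unadjusted p = 0.0387), and without control replicate 2, mutant replicate 1 or mutant replicate 2 the unadjusted p was 0.122, 0.147 and 0.0527. With normexp correction the difference was -0.33 (unadjusted p = 0.0531, limma).

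Ednrb, the endothelin receptor that neural crest cells need to reach the distal colon and that stromal and vascular cells also make, had -2.02 and -1.71 in the mutants against -1.70 and -0.97 in the controls. The groups met at about -1.7, with control replicate 2 far above (-0.53 ± 0.29), and the difference ranged from -0.89 to -0.17 without 1 array. A second Ednrb probe gave -0.47. Sox10, the transcription factor that keeps glial and progenitor identity, had -1.94 and -1.81 in the mutants and -1.62 and -1.71 in the controls, a gap of 0.1 between the nearest arrays (-0.21 ± 0.18). Foxd3, a neural crest transcription factor, was not well above background in mutant replicate 1 and had -3.98 and -3.85 in the mutants and -3.59 and -3.53 in the controls (-0.35 ± 0.30). With normexp correction its difference was 0.04.

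Gfap, the glial filament protein that is raised in reactive glia, had -2.51 and -2.05 in the mutants and -2.36 and -2.48 in the controls. Mutant replicate 2 was the high array and the other 3 lay together (0.14 ± 0.25), and a second probe gave 0.00. Erbb3, a neuregulin receptor of glia that colon epithelium also makes, had 3.15 and 3.74 in the mutants and 3.36 and 3.36 in the controls (0.09 ± 0.21). Entpd2, an ectonucleotidase of glia, had 1.92 and 2.22 in the mutants and 2.16 and 2.22 in the controls (-0.12 ± 0.14). Cdh19, the cadherin of Schwann-type glia, was not well above background.

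The 2 same-sex pairs gave shifts of unequal size. The median over neuron genes was -0.42 in the female and -0.13 in the male pair, and 20 and 16 of 22 genes were lower. Over all 19325 genes the medians were -0.01 and 0.04, with 9910 lower in the female and 8023 in the male pair. Over the glial genes it was -0.32 in the female and -0.10 in the male pair, with 7 and 5 of 7 lower. In 22 of the 29 tested members the female difference was the larger in size. The share of all genes for which this held was not computed, so it cannot be called a trait of the members. Lower in both pairs were 15 neuron and 5 glial genes, against 29.1% of all genes. Higher in both was 1 member, Cartpt, against 36.3% of all genes, and in 8 of 29 the pairs went opposite ways, against 34.6% of all genes. Relative to the control means, the median neuron gene stood at -0.48 in mutant replicate 1 and -0.15 in mutant replicate 2, with the controls at 0.01 and -0.01. The neuron median became -0.17 with normexp correction, -0.15 when mutant replicate 1 was left out and -0.48 when mutant replicate 2 was. With 1 pair of each sex the difference between the pairs could not be tested.

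**Figure D3:**
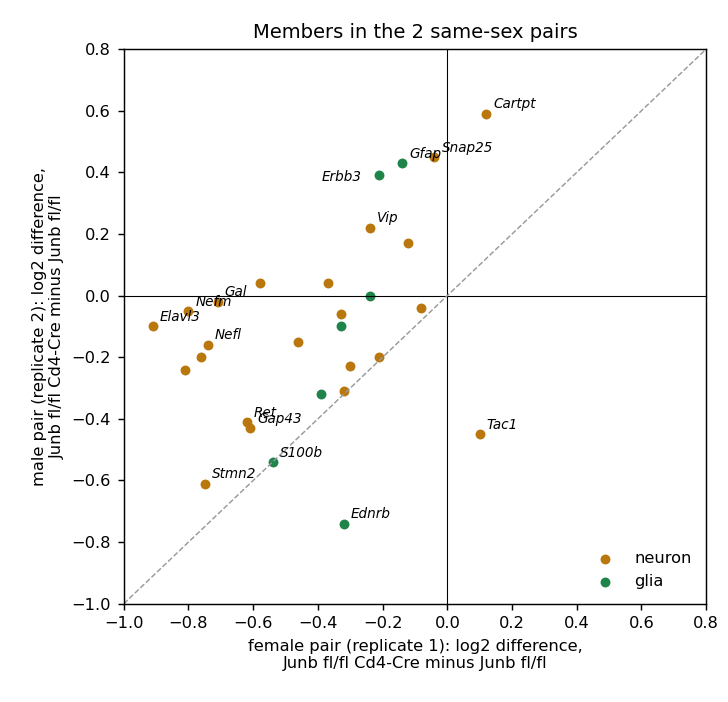
Each point is 1 tested gene, neuron in orange and glia in green; the horizontal axis is the log2 difference (Junb fl/fl Cd4-Cre minus Junb fl/fl) in the female pair and the vertical axis that in the male pair, with equality dashed. Stmn2, Ret, Gap43 and S100b lie near the dashed line below 0 in both pairs, and Elavl3, Nefl and Nefm are lower mainly in the female pair.

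A wider list held 50 neuronal genes outside the 34. Of 42 tested, 38 were lower and 4 higher (median -0.35, with -0.43 in the female and -0.16 in the male pair), and 20 had both mutant arrays below both controls, against 17.6% of all genes. At an unadjusted p under 0.05 there were 7, all lower, against 3.98% of all genes, and none passed the adjusted threshold. The smallest p belonged to Ddc, the decarboxylase of monoamine synthesis, also made in the epithelium (-0.62 ± 0.16), the adhesion molecule gene Ncam1 (-0.51 ± 0.14), the synapsin gene Syn2 (-0.63 ± 0.18) and the neuronal reticulon gene Rtn1 (-0.48 ± 0.14). Syn2 had -1.54 and -1.29 in the mutants against -0.68 and -0.88 in the controls, with no overlap. The median was -0.18 with normexp correction, and -0.24 without mutant replicate 1. This wider list is not limited to genes particular to neurons, and Thy1 is also on the fibroblast list below. Which cells made these transcripts was not tested.

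Other glial genes numbered 22, of which 17 were tested, 12 lower and 5 higher (median -0.21, but -0.03 without control replicate 2 and -0.36 without mutant replicate 2). Its 4 smallest p-values did not share a direction. Mal, a myelin and epithelial membrane protein, had 3.89 and 4.78 in the mutants against 2.51 and 2.23 in the controls (1.96 ± 0.31). Kcna1, a potassium channel of axons and glia, had -4.13 and -3.71 in the mutants against -2.67 and -2.37 in the controls (-1.40 ± 0.30), with mutant replicate 1 not well above background. Aldh1a1 (-0.47 ± 0.13) and the chaperone gene Cryab (-0.43 ± 0.15) were lower. These unadjusted p-values ran from 0.00129 to 0.0304, and the adjusted ones were 0.417 or more.

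Ligands and receptors that support enteric neurons were mixed. Of 16 listed genes 12 were tested, 8 lower and 4 higher (median -0.13). Gdnf, the Ret ligand made by muscle and glia, had -1.91 and -1.48 in the mutants against -1.44 and -1.12 in the controls (-0.41 ± 0.23), and did not pass the unadjusted threshold. Gfra2, the coreceptor that presents neurturin to Ret, had -0.46 and -0.22 in the mutants against 0.15 and 0.19 in the controls (-0.51 ± 0.15, unadjusted p = 0.0166). Its groups did not overlap, whereas neurturin itself, Nrtn, differed by -0.09 ± 0.16. Bmp2, which muscularis macrophages supply to enteric neurons, differed by -0.49 ± 0.19, and the neurotrophin receptor gene Ntrk2 by 0.58 ± 0.15. Their adjusted p-values were 0.426 or more.

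**Figure D4:**
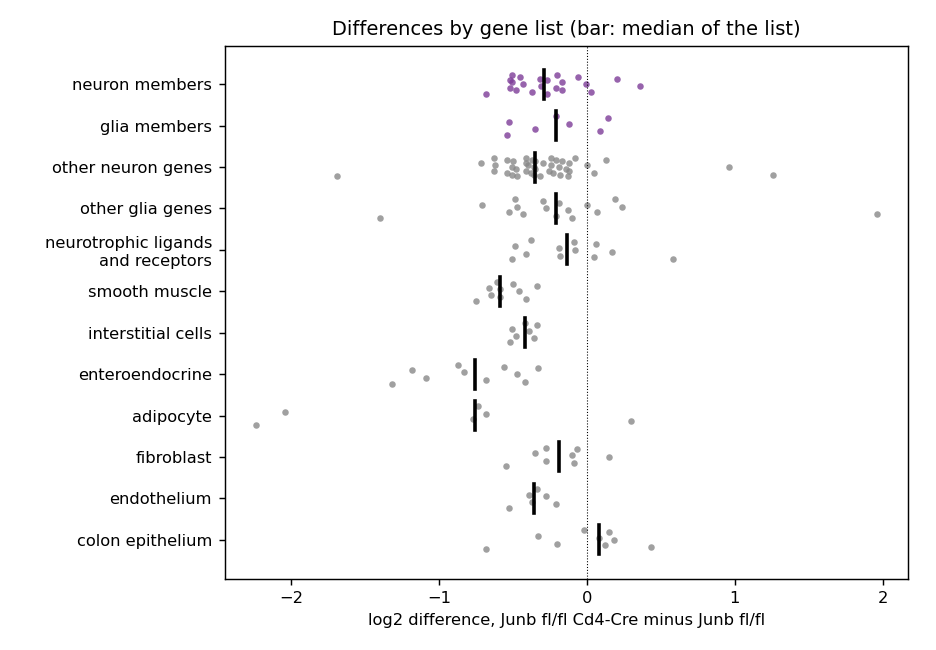
Log2 difference (Junb fl/fl Cd4-Cre minus Junb fl/fl) of each tested gene by list, with the list's median as a black bar; the neuron and glia members are purple. The neuron median is -0.29 and the glia median -0.21, while the smooth muscle median is -0.59 and the enteroendocrine median -0.76.

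Markers of several cell types around the ganglia were lower too. The counts below stand beside all genes, of which 46.6% were lower and 53.4% higher in any size. At an unadjusted p under 0.05, 3.98% of all genes were lower. All 10 smooth muscle genes were lower, 9 of them at an unadjusted p under 0.05 (median -0.59), and their summed signal was 308 to 317 in the mutants and 415 to 452 in the controls, in units of the array's 75th percentile. Unlike the neuron median, the smooth muscle median was alike in the 2 mutants, at -0.60 and -0.58 below the control means. Interstitial cells, which pass signals from nerve to muscle, were marked by 7 tested genes, all lower (median -0.42, 1 at an unadjusted p under 0.05). Their summed signal was 12.5 to 13.8 in the mutants and 16.5 to 19.7 in the controls. Ano1 was the largest part of each sum, and its groups overlapped, with 2.87 and 2.25 in the mutants and 3.39 and 2.77 in the controls. In the epithelium, enteroendocrine cells share Uchl1, Snap25, Tac1 and other genes with neurons. Their 10 tested genes of 15 were all lower, 7 at an unadjusted p under 0.05 (median -0.76), and summed to 46.4 to 52.7 in the mutants and 86.0 to 92.9 in the controls, while Neurog3, Pax6, Fev and Scgn reached the background threshold on 0 arrays and Isl1 on 1. Of 6 tested adipocyte genes 5 were lower (median -0.76), with sums of 7.49 to 10.3 in the mutants and 18.8 to 20.1 in the controls. Endothelial genes were lower in 6 of 6 cases (median -0.36, but -0.13 without control replicate 2 and -0.61 without mutant replicate 2), with sums of 3.84 to 5.78 in the mutants and 4.86 to 7.25 in the controls. The 9 epithelial markers had a median of 0.08 and sums of 884 to 1030 in the mutants and 970 to 984 in the controls. Hox genes of the distal colon were lower in 5 of 5 tested (median -0.89), with medians of -0.23 in the female and -1.96 in the male pair. They summed to 3.69 to 23.8 in the mutants and 12.9 to 30.8 in the controls, and most of each sum was Hoxb13. Neutrophil genes were higher in 5 of 7 tested (median 1.48, but 0.56 without mutant replicate 2 and 2.34 without mutant replicate 1). Their sums were 52.8 to 81.1 in the mutants and 46.8 to 48.3 in the controls. The largest part of each sum was Csf3r, with 5.35 and 5.33 in the mutants and 5.50 and 5.22 in the controls (difference -0.01). Fibroblast genes were lower in 7 of 8 (median -0.19; sums of 89.0 to 113 in the mutants and 89.7 to 140 in the controls) and macrophage genes in 6 of 7 (median -0.17; 13 to 17.5 in the mutants and 12.9 to 20.0 in the controls). Whether the share of muscle, outer wall, infiltrate, adipocytes or enteroendocrine cells played a part in the neuronal and glial values was not tested. Nor was the position along the colon.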

How the data were processed

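Whole-colon RNA of 4 mice, 2 Junb fl/fl Cd4-Cre and 2 Junb fl/fl, was labelled with Cy3 and hybridised to 1-colour Agilent arrays, all on 1 slide with 1 scan time. Groups and replicate numbers come from the sample titles. The authors deposited intensity values as Agilent Feature Extraction wrote them (version 11.5.1.1 in the submitters' processing notes): each spot's background-corrected processed signal, mean signal and median background, on the linear scale. The headers record no scaling of one array to another. The deposited flags (0 or 1) for signal above background, saturation and outliers were used as given.

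Of 62976 spots, 59305 were not controls. The log2 of the processed signal minus each array's 75th percentile was averaged over the spots of a probe without outliers, and 11 probes with no clean spot on some array were left out. The brightest probe well above background on at least 2 of 4 arrays stood for its gene. Under R 4.3.3, limma 3.58.1 fitted the differences with lmFit and eBayes (intensity trend, two-sided) and adjusted by Benjamini-Hochberg over 19325 genes. The labels do not say that replicates are separate animals, though Xist, Eif2s3y and Ddx3y differ between them. The p-values rest on the spread between the 2 arrays of a group, moderated by the spread over all genes. Since those 2 arrays differ in sex by these genes, that spread includes any difference between the sexes. The number of arrays limits the precision. The fit was tested on simulated data with planted log2 differences of 2 or more in size and no effect of sex. Those differences are larger than any member's, so the simulation does not show how differences of the members' size are called.

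Members and lists were chosen with earlier results of these data known. The naming rule gave values in every array to members at an unadjusted p under 0.05 and to 2 more per role group, and named up to 4 genes of other lists by smallest p; here more members are shown with all values. Nrtn, Muc2, Slc26a3, Csf3r and list genes not above background were named outside that rule. Alternatives were normexp background correction (offset 50), quantile normalization, no filter or a filter on all 4 arrays, no trend, the mean over probes, dim values at the floor, leaving out each array and the replicate number as a block.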

Additional observations from a re-analysis of the deposited data

Results flagged for a closer look

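In 8 of the 29 tested members the mutant-minus-control difference had opposite signs in the male and the female pair, against 34.6% of all genes. These differences were not tested, since each sex has 1 mouse per genotype. Among neuron genes, the male minus the female value was 0.42 for Elavl4 (0.04 in the male pair and -0.37 in the female pair), 0.29 for Tubb3 (0.17 and -0.12), 0.49 for Snap25 (0.45 and -0.04) and 0.63 for Syn1 (0.04 and -0.58). For the peptide genes it was 0.46 for Vip (0.22 in the male pair and -0.24 in the female pair) and -0.55 for Tac1 (-0.45 and 0.10). For the glial genes it was 0.57 for Gfap (0.43 in the male pair and -0.14 in the female pair) and 0.59 for Erbb3 (0.39 and -0.21).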

How the results depend on the processing

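Quantile normalization turned no member's direction. Leaving out the intensity trend or adding the replicate block cannot change a member's difference, only its p-value. Both changes of filter and dim values at the floor left the difference of each member they kept as it was. The unchanged directions under these settings are therefore no support. Normexp correction turned Foxd3 (0.04), and the mean over probes turned Syt1 (0.04) and with it the median of the synaptic genes (0.04). The receptor median was 0.07 without the filter, and the epithelial median -0.10 after quantile normalization. With normexp correction the neuron median was -0.17 and the glial median -0.09, 2 glial genes did not overlap, and 1 neuron gene and 0 glial genes had an unadjusted p under 0.05. Glial genes under that threshold numbered 0 after quantile normalization and 2 without the trend. Without the filter 3607 of 37066 genes were under it, of a larger number tested.

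The titles share replicate numbers 1 and 2, and the deviations of same-numbered arrays from their group means correlated at 0.239 over all genes, but no label says that a number marks a shared litter or day. With the replicate block, which is also a block on sex, 46 genes passed the adjusted threshold, no member among them (Stmn2 had the smallest adjusted p of the members, 0.0949), and 3382 genes, 5 neuron and 2 glial members had an unadjusted p under 0.05.

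Leaving out each array in turn, 10 members changed direction at least once. The genes at an unadjusted p under 0.05 ran from 864 (without mutant replicate 1) to 2167 (without control replicate 2), none adjusted. The neuron median ran from -0.48 to -0.15 and the glial median from -0.28 to -0.15 (without mutant replicates 2 and 1). Neuron genes under the unadjusted threshold ran from 1 (without control replicate 1) to 5 (without mutant replicate 2), and glial ones from 0 to 2 (2 without control replicate 1). Those without overlap ran from 15 to 19 and from 4 to 7. Non-overlap is easier to reach with fewer arrays, and its share over all genes was not computed for these subsets. These counts therefore cannot be set against those over all arrays. Elavl4 ranged from -0.35 to 0.02, Tubb3 from -0.24 to 0.30, Vip from -0.43 to 0.42, Tac1 from -0.75 to 0.40, Gal from -0.90 to 0.16, Grp from -0.58 to 0.16, Cartpt from -0.13 to 0.85, Gfap from -0.09 to 0.37, Erbb3 from -0.20 to 0.39 and Entpd2 from -0.27 to 0.03. The peptide median ranged from -0.43 to 0.16, the ligand median from -0.28 to 0.00, the Hox median from -2.35 to 0.26, the fibroblast median from -0.46 to 0.15 and the macrophage median from -0.61 to 0.27. Medians that kept their sign but moved by over 1.5 times were those of the identity genes (-0.51 to -0.16), other glial genes (-0.36 to -0.03), endothelial genes (-0.61 to -0.13) and neutrophil genes (0.56 to 2.34), among others. A block on slide or scan was not run, since all arrays share both. The causes of these shifts were not tested.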
